A study of Homo sapiens with 8 samples.

Results

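The 7 genes described here are stress effectors. DDIT4, SESN2, TRIB3, EIF4EBP1 and PPP1R15A act on the kinase complex mTORC1, on AKT or on protein synthesis, and CHAC1 and NUPR1 are stress-induced genes grouped with them. Their members in the data are the listed ATF4 peaks of which any part lay within 5 kb of the hg19 start site given for each gene. This rule took 55 of the 312662 peaks in 8 lists, or 8 of the 132657 regions formed when peaks sharing at least 1 bp were merged. Peaks were found at 6 of the 7 genes, and none at NUPR1. The rule uses position only, so the peaks' strength was not used to choose them.

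The libraries are chromatin immunoprecipitations with a rabbit monoclonal antibody against ATF4 (5 ug each), sequenced and reduced by the authors to 1 peak list per library. They come from 2 established lines of acute lymphoblastic leukaemia, Nalm6 and SUPB15, each either untreated or given L-asparaginase at 1 IU/ml for 2 h, with 2 libraries in each of the 4 groups. Each line stands for 1 leukaemia, and both groups of a line share every other condition that the labels state. The design text describes independent experiments for Nalm6, and nothing says that the SUPB15 libraries came from separate cultures. The spread between libraries may therefore be technical. With 2 libraries a group, the centred tests below rest mostly on a variance shared over all tested regions. Their p-values are thus no measure of the spread at a single region. Peak lists hold no expression values, so neither the identity of the cells nor the genes' RNA could be checked in them.

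The integrated stress response acts through ATF4, a transcription factor that is made in larger amounts when amino acids run short and the kinase GCN2 phosphorylates the initiation factor eIF2. L-asparaginase breaks down extracellular asparagine, on which leukaemic lymphoblasts depend. Several ATF4 targets act on growth signalling or on protein synthesis under such stress. DDIT4 (REDD1) and SESN2 restrain mTORC1, TRIB3 binds and inhibits AKT, EIF4EBP1 encodes a repressor of cap-dependent translation, and PPP1R15A (GADD34) directs a phosphatase to eIF2 and so ends the block on translation. CHAC1 encodes an enzyme that degrades glutathione, and NUPR1 a small stress-induced nuclear protein. ATF4 binds with C/EBP partners to the C/EBP-ATF response element, and with other partners to elements of the cyclic AMP response type.

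The start-site sequences of 3 genes are shown, CHAC1 and PPP1R15A because they held a searched motif, and SESN2 because the summits of untreated SUPB15 lay within that distance of its start. They are the 250 bases before the RefSeq transcript start in GRCh38.p14, plus strand, from chr15:40953221-40953470 for CHAC1, chr19:48872171-48872420 for PPP1R15A and chr1:28259268-28259517 for SESN2. Capitals mark a match to the searched motifs TGATGNAA (with TGATGCAA as its stricter form) or TGACGTCA, the last of which was added after the sequences had been seen. Both strands were searched, and TGATGCAA is a case of TGATGNAA.
CHAC1: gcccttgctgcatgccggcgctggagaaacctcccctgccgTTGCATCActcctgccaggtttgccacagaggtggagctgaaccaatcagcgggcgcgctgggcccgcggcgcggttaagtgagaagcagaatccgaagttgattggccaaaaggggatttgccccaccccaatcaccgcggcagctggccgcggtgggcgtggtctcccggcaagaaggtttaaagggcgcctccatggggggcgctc
PPP1R15A: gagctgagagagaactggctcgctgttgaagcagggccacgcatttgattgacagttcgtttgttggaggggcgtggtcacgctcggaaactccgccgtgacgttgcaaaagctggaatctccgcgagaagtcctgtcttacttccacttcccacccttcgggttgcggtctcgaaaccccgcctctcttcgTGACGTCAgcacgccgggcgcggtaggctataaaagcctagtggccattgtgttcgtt
SESN2: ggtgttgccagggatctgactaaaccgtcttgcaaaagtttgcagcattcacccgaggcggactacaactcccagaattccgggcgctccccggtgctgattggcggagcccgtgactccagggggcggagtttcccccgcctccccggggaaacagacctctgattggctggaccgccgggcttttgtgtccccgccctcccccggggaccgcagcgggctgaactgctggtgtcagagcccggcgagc

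The CHAC1 window held TTGCATCA, the reverse strand of TGATGCAA, at positions -209 to -202 from the RefSeq start. The summits of the CHAC1 peaks lay at -260 to -196 from the hg19 start site in the 8 lists, which covers the same distance. The start sites come from different annotations and builds, so a match to the base cannot be read from these distances. The PPP1R15A window held TGACGTCA at positions -58 to -51. Of 7 windows found for 5 of the 7 genes, the windows of SESN2, DDIT4 and TRIB3 held no match, which says only that these letters are not in these bases. The leading summits lay at -1029 to -944 at DDIT4, 247 to 319 at TRIB3, 2920 to 2961 at PPP1R15A and a median of 577 at SESN2. Those sites lie outside the windows and were not searched. Over all 35116 RefSeq windows of this length, TGATGNAA was present in 3.14%, TGATGCAA in 0.772% and TGACGTCA in 1.65%. No EIF4EBP1 or NUPR1 window was used.

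The peak caller's fold enrichment compares the fragments piled up at a summit with the local background. That pair of numbers was recovered for 100% of the peaks in every list by solving the listed fold and p-value together. The summit pileup, a whole number of fragments, was then divided by the genome background of its library, the lowest background in the list, which served as relative depth (2.21 to 2.97 in Nalm6 and 3.90 to 4.19 in SUPB15). Pileups had an upper limit. No peak in any list exceeded 400 fragments, and 4 and 9 peaks of the Nalm6 asparaginase lists and 4 peaks of SUPB15 asparaginase replicate 1 stood at exactly 400. The lists without such peaks reached 357 to 399. A site at this limit cannot show a further rise in pileup, so a change at the strongest sites of these genes can be no larger than the limit leaves room for.

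ATF4 peaks were listed at 6 of the 7 genes in all 8 libraries, untreated ones included. Counted as regions merged over 8 lists, 6 of the 8 at these genes were listed in each of the 8 libraries, and 2.87% of all such regions were. Within a line, 44.1% of the merged Nalm6 regions were listed in each of its 4 libraries, and 4.63% of the SUPB15 regions in each of theirs. These shares are of regions with a peak in at least 1 list. The share of windows around all start sites was not determined. The positions differed between genes. The summit lay upstream of the start site at DDIT4 and CHAC1, just downstream at TRIB3, about 1 kb downstream at EIF4EBP1 and almost 3 kb downstream at PPP1R15A. Apart from SESN2, the leading summit of a gene moved by 22 to 85 bases over the 8 lists. PPP1R15A had a weaker peak at the start site too, in all 4 Nalm6 lists and in 1 SUPB15 list.

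**Figure D1:**
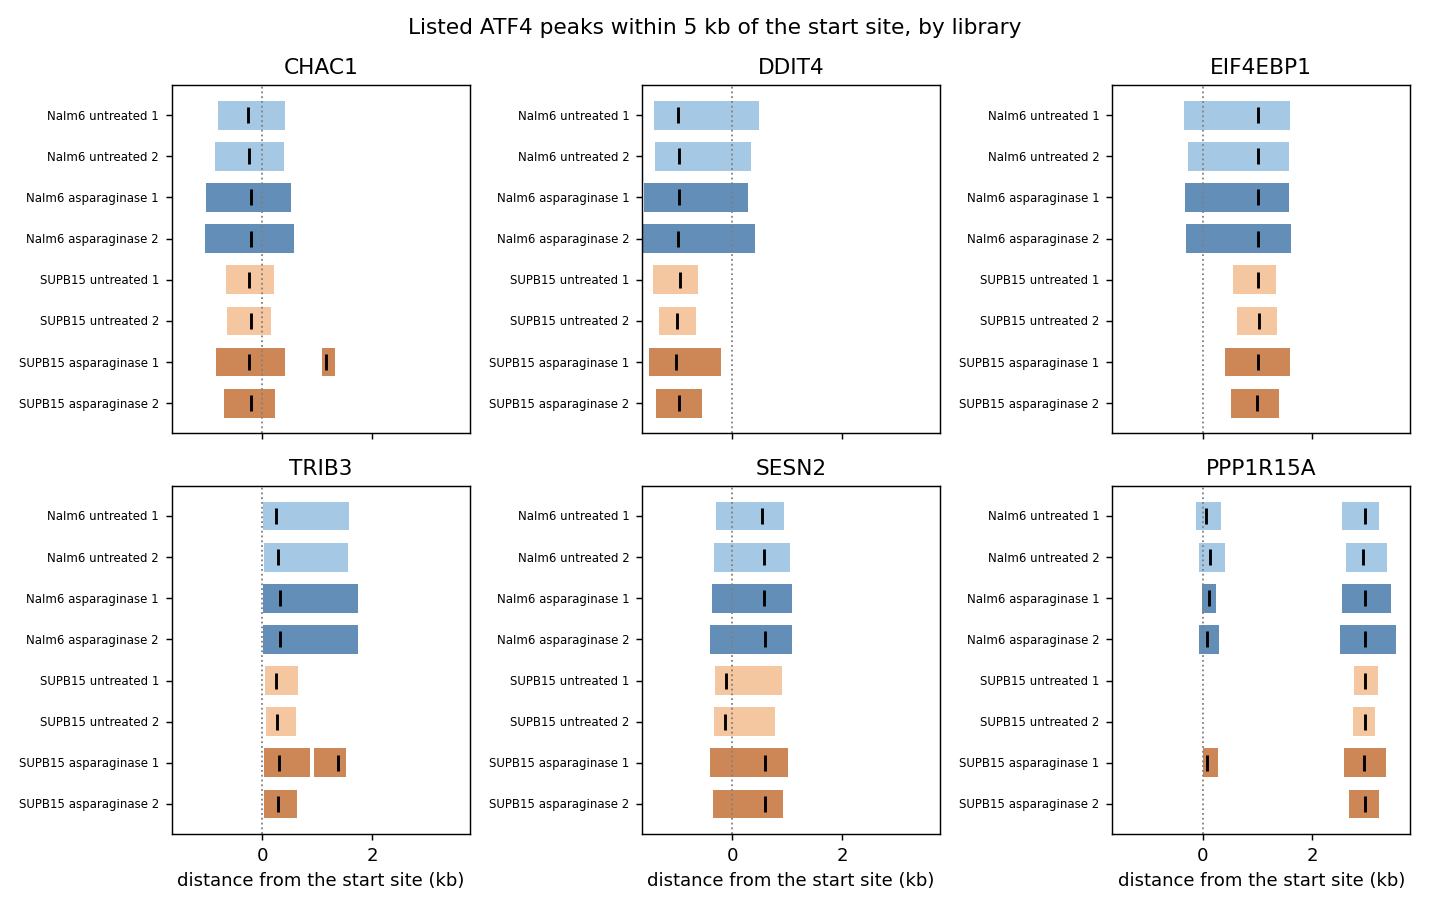
Listed ATF4 peaks within 5 kb of the start site (dotted line at 0) of 6 genes, 1 row per library; bars span each peak, ticks mark summits, and the x axis is the distance in kb. Summits stay in place over the 8 libraries at 5 genes, while at SESN2 the untreated SUPB15 summits (-122 and -128 bases) lie apart from the other 6 (542 to 602 bases).

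DDIT4, an inhibitor of mTORC1 signalling, had its peak on chromosome 10 from 74032032 to 74034155, with summits at -1029 to -944. In untreated Nalm6, 324 fragments were piled up in both libraries, and with asparaginase 400 in both, the limit. In SUPB15 the untreated libraries had 221 and 165 fragments and the asparaginase libraries 399 and 390. The treated libraries were higher than the untreated ones in both lines, with no overlap. A gap of this kind, on pileups over genome background, was found at every tested region of the 6 genes, and at 60.4% of all tested regions in Nalm6 and 68.1% in SUPB15. At CHAC1 in Nalm6 the pileups themselves went only from 388 and 398 to 400 and 400, the limit. The genome background, 2.97 and 2.79 in untreated and 2.21 and 2.33 in treated Nalm6, widened the gap there. Relative to genome background the DDIT4 pileups were 109 and 116 against 181 and 172 in Nalm6, and 54.1 and 42.3 against 95.2 and 99.3 in SUPB15. The authors' fold enrichment was 8.83 and 8.24 in untreated Nalm6 (ranks 2078 and 3332 of 34825 and 36801 peaks) and 6.40 and 5.79 with asparaginase (ranks 12573 and 17974 of 43376 and 48984). By -log10 q the same peaks had 182 and 173, and 176 and 161. In SUPB15 the fold was 9.88 and 9.42 without drug (ranks 415 and 352 of 9575 and 9586) and 8.21 and 11.6 with it (ranks 2973 and 877 of 88302 and 41213), and -log10 q was 134 and 97.1 against 213 and 261. In Nalm6, therefore, the listed fold was lower in both treated libraries although the pileup was higher in both, because the local background in the denominator went from 35.8 and 38.4 to 61.7 and 68.2 fragments.

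SESN2, a sensor of leucine that restrains mTORC1, had a peak over its start site on chromosome 1 from 28585565 to 28587055. Its pileup was 116 and 134 in untreated Nalm6 and 302 and 325 with asparaginase. In SUPB15 it was 97 and 66 without and 285 and 197 with the drug. Both treated libraries lay above both untreated ones in each line, and none of the 8 was near the limit of 400. Fold enrichment was 8.05 and 8.74 against 9.32 and 8.82 in Nalm6 (ranks 3073, 2618, 4258 and 5674), and 7.84 and 5.90 against 8.53 and 9.16 in SUPB15 (ranks 821, 1163, 2706 and 1639). The -log10 q was 61.7 and 75.8 against 177 and 183 in Nalm6, and 50.4 and 26.6 against 157 and 114 in SUPB15. The peak spanned both sides of the start site in every list, but its highest point differed. It was at -122 and -128 in the untreated SUPB15 lists and at 602 and 595 in the treated ones, while all Nalm6 summits lay at 542 to 591. The untreated and treated SUPB15 pileups were therefore read at different places within one region.

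TRIB3, a pseudokinase that inhibits AKT, had its summit at 247 to 319 in all lists, in a region on chromosome 20 from 361318 to 363050. The pileup was 269 and 280 in untreated and 359 and 364 in treated Nalm6. It was 183 and 161 in untreated and 346 and 321 in treated SUPB15. The treated libraries were higher in both lines without overlap. The fold enrichment was 13.99 and 12.67 in untreated Nalm6 (ranks 198 and 471), the highest of the 6 genes there, and 8.42 and 7.57 with asparaginase (ranks 5666 and 8877). In SUPB15 it was 13.6 and 13.8 (ranks 83 and 59), then 11.97 and 16.13 (ranks 982 and 216). The -log10 q values were 202 and 199 against 195 and 183 in Nalm6, and 136 and 121 against 237 and 260 in SUPB15.

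EIF4EBP1, which encodes the repressor 4E-BP1 of cap-dependent translation, had the most constant summit, at 999 to 1021, in a region on chromosome 8 from 37887683 to 37889629. The pileup was 286 and 299 in untreated Nalm6 and 387 and 395 with asparaginase, close to the limit. In SUPB15 it was 166 and 124 without and 370 and 318 with the drug. Again the treated libraries did not overlap with the untreated ones. Fold enrichments of 10.43 and 10.96 stood against 8.75 and 8.14 in Nalm6 (ranks 1006, 1008, 5088 and 7188), and 12.2 and 10.2 against 11.2 and 15.3 in SUPB15 (ranks 171, 266, 1244 and 288). The -log10 q was 180 and 194 against 216 and 210 in Nalm6, and 116 and 77.5 against 243 and 250 in SUPB15.

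PPP1R15A, the regulatory subunit that reverses eIF2 phosphorylation, had its leading peak downstream of the start site, on chromosome 19 from 49378151 to 49379172, with summits at 2920 to 2961. Its pileup was 81 and 83 in untreated Nalm6 and 269 and 285 with asparaginase. In SUPB15 it was 111 and 75 without and 284 and 213 with the drug. This was the lowest of the 6 leading peaks in untreated Nalm6, and the treated libraries of both lines lay far above the untreated ones. Fold enrichment was 6.35 and 5.81 against 12.23 and 10.96 in Nalm6 (ranks 7237, 10431, 1735 and 2875), and 8.83 and 7.18 against 12.1 and 13.9 in SUPB15 (ranks 600, 752, 944 and 447). The -log10 q was 35.7 and 33.8 against 188 and 186 in Nalm6, and 63.0 and 36.3 against 197 and 160 in SUPB15. It was the one leading peak of Nalm6 at which the fold enrichment and the pileup both passed the test as higher.

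The start-site peak of PPP1R15A, from 49375532 to 49376054, was of another size. It had 48 and 58 fragments in untreated Nalm6, 63 and 84 with asparaginase, and 51 in SUPB15 asparaginase replicate 1, with no listed peak in the other 3 SUPB15 libraries. Fold enrichments were 3.90, 4.20, 2.97 and 3.38 in Nalm6, ranks 22997, 21916, 41776 and 43831, and 2.24 in the SUPB15 library, rank 87802. The -log10 q was 12.6, 16.8, 11.1 and 18.3 in Nalm6 and 4.69 in SUPB15.

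CHAC1, the glutathione-degrading enzyme, had the strongest ATF4 peak of the set without drug, on chromosome 15 from 41244593 to 41246210. Untreated Nalm6 libraries had 388 and 398 fragments at the summit and treated ones 400 and 400. Untreated SUPB15 had 354 and 333 and treated SUPB15 400 and 398. Pileups were thus near the limit before treatment in Nalm6, and at or next to it after treatment in both lines. By pileup it ranked 3 and 2 in the untreated Nalm6 lists, 4 and 5 in the untreated SUPB15 lists, and 1 in the 4 treated lists, a place shared with other peaks at 400 fragments in 3 of them, DDIT4 among these in both Nalm6 lists. Fold enrichment was 12.3 and 12.1 against 8.19 and 7.53 in Nalm6 (ranks 440, 607, 6164 and 8987), and 14.1 and 15.7 against 8.36 and 12.2 in SUPB15 (ranks 64, 33, 2834 and 739). By -log10 q the untreated peaks ranked 7 and 9 in Nalm6 (269 and 273) and 3 in both SUPB15 lists (264 and 264). With asparaginase they ranked 270 and 433 in Nalm6 (213 and 200) and 188 and 22 in SUPB15 (216 and 274). Ranks in lists of different lengths are given as positions and not as changes.

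NUPR1, on chromosome 16, had no listed peak within 5 kb of its start site in any of the 8 libraries. The nearest peak lay at higher coordinates, 14401 to 14819 bases away in 6 lists, 77297 bases away in SUPB15 asparaginase replicate 2 and 285127 bases away in untreated SUPB15 replicate 2. At genome background the lists held peaks from 2.86 to 4.53 times that background upwards. A site below this level would not be listed, so the absence of a peak is not a measured level of 0.

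**Figure D2:**
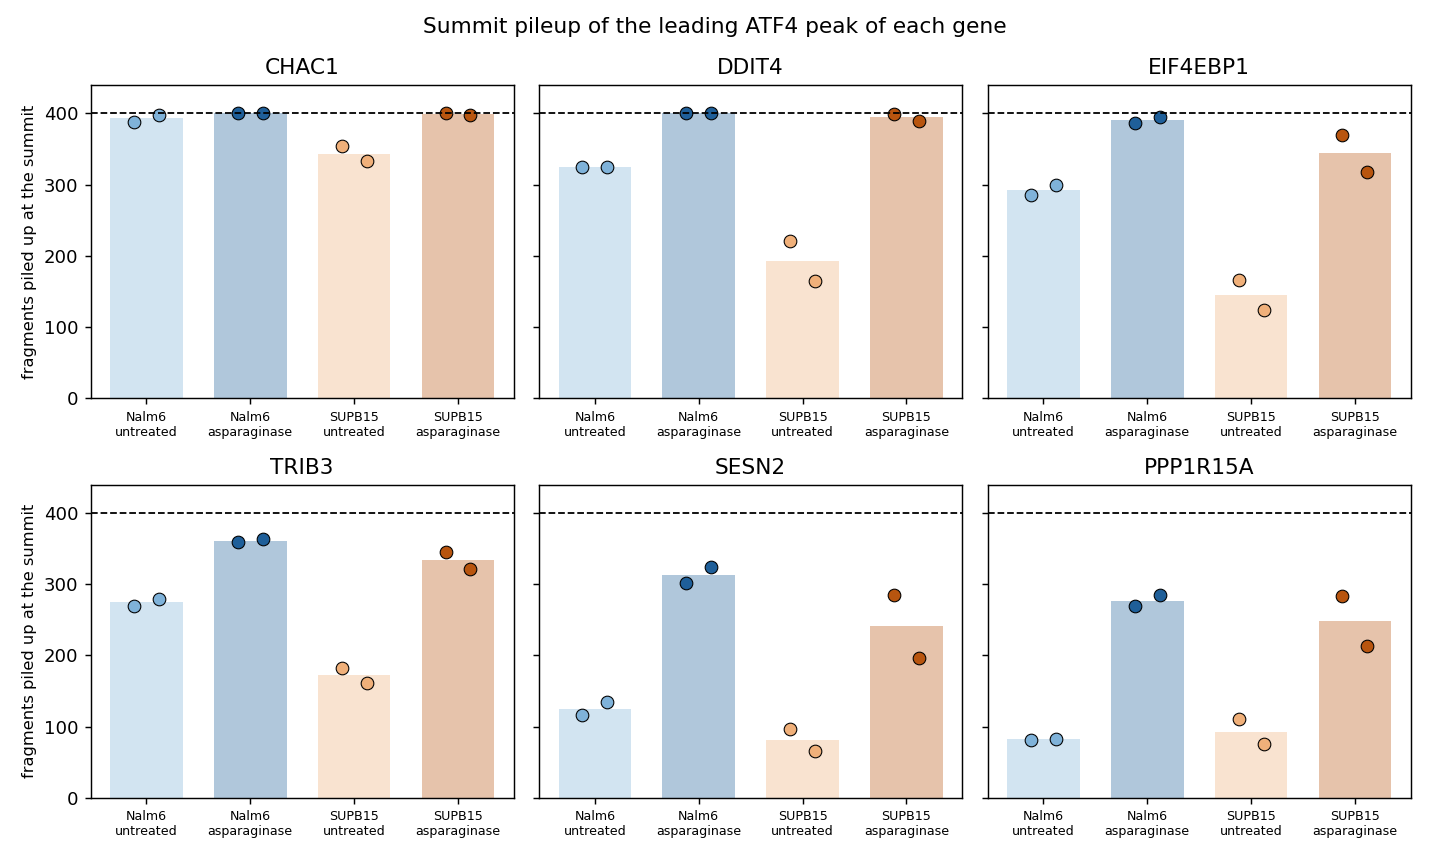
Fragments piled up at the summit of the leading peak of 6 genes; points are libraries, bars are means of 2, and the dashed line is the highest pileup in any list, 400. Every treated library lies above the untreated libraries of its line, and CHAC1 and DDIT4 reach the line.

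Within a library the order of the genes by pileup was stable at the top. CHAC1 led without drug in both lines, at 131 and 143 times genome background in Nalm6 and 86.7 and 85.4 times in SUPB15, clear of DDIT4. In untreated Nalm6 the order was then DDIT4, EIF4EBP1, TRIB3, SESN2 and PPP1R15A, and the values of EIF4EBP1 (96.3 and 107) and TRIB3 (90.5 and 100.4) overlapped. In untreated SUPB15, TRIB3 (44.8 and 41.3) overlapped with DDIT4 and lay just above EIF4EBP1 (40.7 and 31.8), and PPP1R15A (27.2 and 19.2) overlapped with SESN2 (23.8 and 16.9). With asparaginase, CHAC1 and DDIT4 could not be separated, both being at or near the limit, and in Nalm6 the values of EIF4EBP1 (175 and 169) overlapped with theirs. SESN2 and PPP1R15A, the 2 weakest without drug, were at 137 and 139 and at 122 and 122 in treated Nalm6, and at 68.0 and 50.2 and at 67.8 and 54.2 in treated SUPB15.

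Whether binding changed with asparaginase was tested at regions listed in each of the 4 libraries of a line. The 7 such regions in Nalm6 and 6 in SUPB15 belong to the same 6 genes, NUPR1 could not be tested, and the PPP1R15A start-site region could not be tested in SUPB15. Pileups over genome background were taken as log2, each library was centred on its median over the tested regions, and limma with a trend was fitted to all of them, with Benjamini-Hochberg adjustment. The centring matters because most shared regions were higher with the drug. Without it the median change was 0.37 in Nalm6 and 0.62 in SUPB15 on the log2 scale. The values that follow are relative to each library's median region.

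In Nalm6, 5 of the 7 tested regions rose and none fell (limma, adjusted p below 0.05), while 23.2% of the 25213 regions were called higher and 18.8% lower. The median over the 7 was 0.33, and -0.07 over all regions. The downstream PPP1R15A region rose by 1.65 ± 0.12 (SE) on the log2 scale (limma, adjusted p = 9.82e-18). Before centring its mean pileup was 28.5 times genome background without drug and 122 times with it, a log2 change of 2.09. SESN2 rose by 1.23 ± 0.11 (adjusted p = 2.64e-14). EIF4EBP1 at 0.33 ± 0.10 (adjusted p = 0.00607), TRIB3 at 0.30 ± 0.10 (adjusted p = 0.0116) and the PPP1R15A start-site region at 0.36 ± 0.15 (adjusted p = 0.0469) rose by less on this measure. Treated pileups were 387 and 395 at EIF4EBP1 and 359 and 364 at TRIB3. The limit of 400 thus bounds the changes at EIF4EBP1 and TRIB3 too, and the sizes do not rank the responses. DDIT4 was at 0.21 ± 0.10 (adjusted p = 0.0801) and CHAC1 at -0.07 ± 0.10 (adjusted p = 0.607), both with treated pileups of 400, the limit. Without untreated replicate 1, untreated replicate 2 or asparaginase replicate 1, and also with limma fitted without a trend, 2 regions were called, SESN2 and the downstream region of PPP1R15A. Without centring, 6 of the 7 were called higher, all but CHAC1, and none lower (38.7% and 0.397% of all regions). On the listed fold enrichment, 1 region, the downstream one of PPP1R15A, was called higher and 5 lower (13.6% and 7.8% of all regions), the exception being SESN2.

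In SUPB15, 3 of the 6 tested regions rose and 1 was called lower relative to the median region, while 24.4% of the 4765 regions were called higher and 38.8% lower. The median was 0.24 over the 6 and -0.27 over all regions. SESN2 rose by 0.64 ± 0.17 (SE; limma, adjusted p = 0.00318), PPP1R15A by 0.51 ± 0.16 (adjusted p = 0.00972) and EIF4EBP1 by 0.34 ± 0.13 (adjusted p = 0.0239). DDIT4 was at 0.13 ± 0.12 (adjusted p = 0.331), with treated pileups of 399 and 390 next to the limit, and TRIB3 at 0.04 ± 0.12 (adjusted p = 0.759). The region called lower was CHAC1, at -0.69 ± 0.11 (adjusted p = 0.000107). Its pileups went from 354 and 333 to 400 and 398, and without centring its change was 0.19 (adjusted p = 0.163). With treated pileups at or next to the limit of 400, that change could hardly have been larger. The negative value after centring is relative to the median region and is no measure of a fall in pileup. What it would have been without the limit was not tested. With no centring, 5 of the 6 regions were called higher and none lower (49% and 0.0839% of all regions). On the listed fold enrichment none was called higher and 3 were called lower, CHAC1, DDIT4 and TRIB3 (13.8% and 30.9% of all regions). One region was called higher without untreated replicate 2 (SESN2), without asparaginase replicate 1 (EIF4EBP1) or without asparaginase replicate 2 (SESN2). EIF4EBP1 was not called with limma fitted without a trend (adjusted p = 0.142) or at a -log10 q of at least 10 (0.18, adjusted p = 0.275).

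The limit on summit pileups does not by itself fix the local background. That background counts fragments in a window of about 10 kb around the peak, and so rises with the peak's width and flanks. If the limit reflects a cap on reads kept per position, fragments at a peak's core are capped in this window too. The 10 kb background is then not free of the limit at CHAC1 and DDIT4, and its sizes of change do not rank the sites. How far the cap lowers it was not tested. The 10 kb measure was added after the lists had been seen. Over genome background it was 10.3 and 11.4 at CHAC1 in untreated Nalm6 and 21.7 and 22.4 with asparaginase, a ratio of 2.03 between the means, while the summit pileups went from 388 and 398 to 400 and 400. As plain counts, the window held 1528 and 1595 fragments without drug and 2397 and 2612 with it. In SUPB15 the CHAC1 values were 5.94 and 5.20 against 11.2 and 8.08. DDIT4 had 12.1 and 13.8 against 27.9 and 29.3 in Nalm6, and 5.26 and 4.26 against 11.4 and 8.31 in SUPB15. At both genes the treated libraries of each line lay above the untreated ones, as they did at 57.4% of all tested regions in Nalm6 and 61.6% in SUPB15.

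For TRIB3 the 10 kb background was 6.16 and 7.59 against 18.9 and 20.3 times genome background in Nalm6, and 3.06 and 2.75 against 6.68 and 4.83 in SUPB15. For EIF4EBP1 it was 8.93 and 9.45 against 19.6 and 20.4 in Nalm6, and 3.10 and 2.89 against 7.67 and 5.06 in SUPB15. SESN2 had 4.56 and 5.18 against 14.3 and 15.4 in Nalm6, and 2.82 and 2.66 against 7.76 and 5.25 in SUPB15. Around the downstream PPP1R15A summit the 10 kb background was 4.01 and 4.83 against 9.55 and 10.8 in Nalm6, and 2.86 and 2.46 against 5.38 and 3.68 in SUPB15. At each of these genes the treated libraries of a line lay above the untreated ones, as at 57.4% of all tested regions in Nalm6 and 61.6% in SUPB15.

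**Figure D3:**
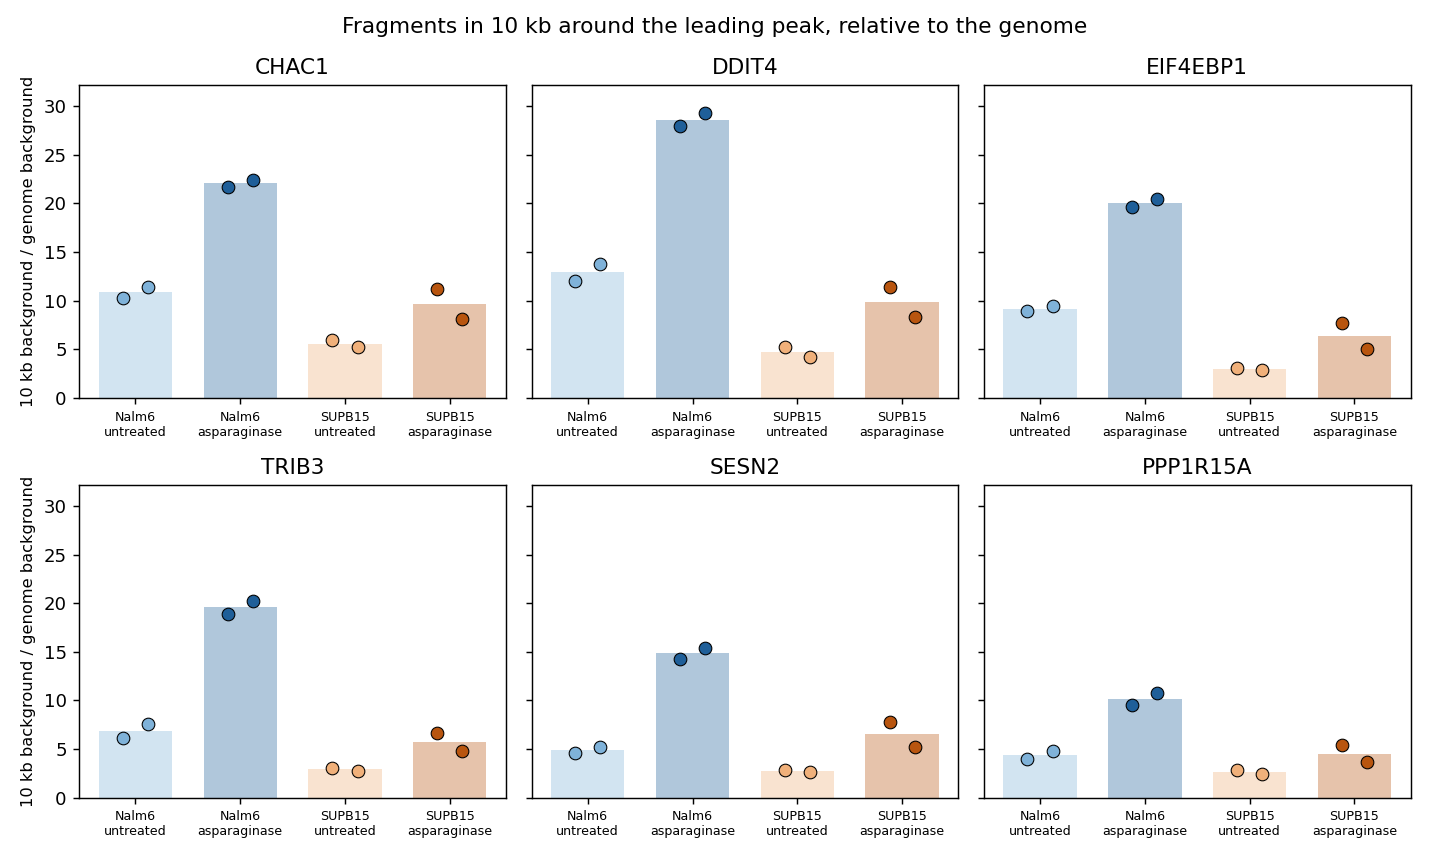
Local background of the leading peak over the genome background of its library, a measure of fragments in a 10 kb window; points are libraries and bars are means of 2. CHAC1 and DDIT4, whose summits are at the limit, show higher treated values here, for example 21.7 and 22.4 against 10.3 and 11.4 for CHAC1 in Nalm6.

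Tested in the same way, with centring, the 10 kb background was higher with asparaginase at 7 of 7 regions in Nalm6 (22.4% of all regions were called higher and 20% lower). The log2 changes were 1.36 ± 0.07 (SE) at SESN2, 1.26 ± 0.07 at TRIB3, 0.90 ± 0.07 at DDIT4, 0.87 ± 0.07 at EIF4EBP1 and 0.77 ± 0.07 at CHAC1 (limma, adjusted p = 8.15e-28 at CHAC1, the weakest of these calls). Both PPP1R15A regions were at 0.95 ± 0.07, and their windows share most of their fragments. These near-equal standard errors come from a variance shared over regions, so the small p-values do not measure the spread at each region. Without centring the adjusted p at CHAC1 in Nalm6 was 0.0204 (limma). In SUPB15, 5 of 6 regions were called higher (21% of all regions higher and 14.9% lower). They were SESN2 at 0.92 ± 0.16, EIF4EBP1 at 0.75 ± 0.16, DDIT4 at 0.73 ± 0.22, TRIB3 at 0.66 ± 0.15 and PPP1R15A at 0.44 ± 0.14. CHAC1 was at 0.47 ± 0.23 (adjusted p = 0.108). Without centring, all 7 regions were still called higher in Nalm6 (24.9% of all regions higher and 0.0833% lower), and 0 of 6 in SUPB15 (limma, adjusted p = 0.138 to 0.143), where at an unadjusted p below 0.05 1427 of the 4765 regions were higher and 100 lower.

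**Figure D4:**
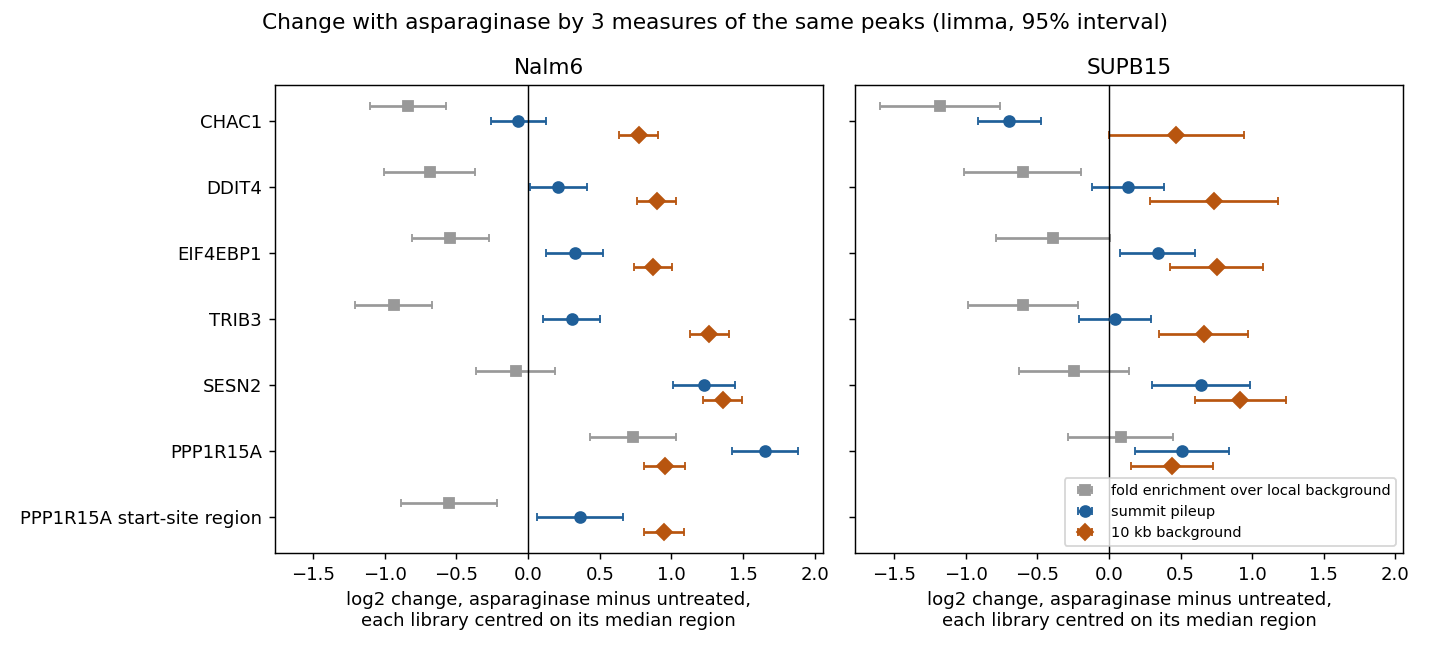
Log2 change with asparaginase at the members' regions by 3 measures, with 95% limma intervals, in Nalm6 (left) and SUPB15 (right), each library centred on its median region. Fold enrichment over local background lies below 0 at CHAC1, DDIT4 and TRIB3 in both lines, and at EIF4EBP1 and the PPP1R15A start-site region in Nalm6. It lies above 0 at the downstream region of PPP1R15A in Nalm6. Its intervals include 0 at SESN2 in both lines, and at EIF4EBP1 and the downstream region of PPP1R15A in SUPB15. The 10 kb background lies above 0 at every region, with an interval that reaches 0 at CHAC1 in SUPB15.

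Whether the lines responded differently was tested by the interaction of line and treatment at the 3812 regions listed in each of the 8 libraries. Of 6 member regions, 1 had a change that was higher in Nalm6 and none one that was higher in SUPB15 (15.5% and 0.997% of all regions). The median difference, SUPB15 minus Nalm6, was -0.28 over the 6 and -0.21 over all regions, so the typical region also leaned to Nalm6. At PPP1R15A the log2 change in SUPB15 was lower than in Nalm6, a difference of -0.997 ± 0.208 (SE; limma, adjusted p = 0.0028). The mean pileup over genome background went from 28.5 to 122 in Nalm6 and from 23.2 to 61.0 in SUPB15. Without centring the difference was -0.69 (adjusted p = 0.316). For SESN2 it was -0.44 (95% interval -0.87 to -0.02, adjusted p = 0.155), for CHAC1 -0.48 (-0.84 to -0.12, adjusted p = 0.0624), for TRIB3 -0.12 (-0.48 to 0.24), for DDIT4 0.07 (-0.32 to 0.46) and for EIF4EBP1 0.16 (-0.20 to 0.52). None of these 5 passed the threshold, and the intervals of DDIT4, TRIB3 and EIF4EBP1 include 0. Treated pileups were at or next to the limit of 400 at CHAC1 and DDIT4 in both lines, and close to it at EIF4EBP1 in Nalm6. The limit bounds the changes compared there, so these differences measure neither a like nor an unlike response. At SESN2 the untreated and treated SUPB15 pileups were read at different places within the region. With each library centred instead on its median deviation from the regions' means, the median difference over all regions was 0.03. PPP1R15A was then at -0.76 (limma, adjusted p = 0.0216) and SESN2 at -0.21 (adjusted p = 0.586). Of 3812 regions, 319 were called with the higher change in Nalm6 and 97 in SUPB15. With the 10 kb background, PPP1R15A (-0.41, adjusted p = 0.0406) and TRIB3 (-0.50, adjusted p = 0.0236) differed, both with the higher change in Nalm6 (23% of all regions, against 6.37% with the higher change in SUPB15). Without SUPB15 untreated replicate 2, SESN2 differed too (-0.63, adjusted p = 0.0228), and without SUPB15 asparaginase replicate 2, CHAC1 did (-0.72, adjusted p = 0.000676).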

How the data were processed

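The data are ATF4 peak lists, 1 per library, deposited by the authors. Per the submitters' processing notes, BWA, MACS2 and DiffBind were used with hg19; no versions are named there, and the options used are not given. The deposited columns used are the fold enrichment at the summit (a ratio), the -log10 p and -log10 q values, and the summit offset, all by the authors' peak caller. Fold and p were solved for the whole-number pileup and the background (tolerance 0.001 in -log10 p; checked on 4573 simulated pairs, 100% recovered). Backgrounds above the lowest were multiples of 0.02 (tolerance 0.0005). That step fits 200-base fragments in a 10 kb window of the immunoprecipitated library itself, and a limit of 400 fits 1 read kept per position and strand over such a fragment; both are inferences from the values and are not stated in the labels. Lists held 9575 to 88302 peaks, and read totals are not in them.

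Regions are peaks of the 4 lists of a line, or of all 8, sharing at least 1 bp; a region takes its highest pileup per library. limma 3.58.1 (R 4.3.3, trend, Benjamini-Hochberg over all regions, 0.05) was run on log2((pileup + 1) / genome background), and tested on simulated data. The genes named are the 7 given; a gene's leading region is the one listed in most libraries. Members, lists and tests were chosen with earlier results of these data known. Alternatives were other windows, q thresholds, list lengths, centring, fold enrichment, no trend, a replicate block and left-out libraries; 10 kb background, median-deviation centring and leaving out chromosomes 1 and 8 were added later. Promoter windows and names are from RefSeq (GRCh38.p14) and no coordinates were converted. With no hg19 annotation, other genes of the pathway were not located.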

Additional observations from a re-analysis of the deposited data

Results flagged for a closer look

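PPP1R15A is listed here for a tested difference between the lines. The log2 change in summit pileup with asparaginase was lower in SUPB15 than in Nalm6 by a difference of -0.997 (limma interaction, adjusted p = 0.0028). A change that was higher in Nalm6 was called at 15.5% of all 3812 regions, and at 1 of the 6 member regions, so the count is near the background. The median difference over all regions was -0.21. With median-deviation centring that median was 0.03, and PPP1R15A was at -0.76 (adjusted p = 0.0216). Without centring the PPP1R15A difference was -0.69 (adjusted p = 0.316) and the call was lost. Pileups went from 81 and 83 to 269 and 285 in Nalm6 and from 111 and 75 to 284 and 213 in SUPB15, higher in 2 of 2 treated libraries of each line. The treated pileups of both lines are thus close in fragments. The genome background went from 2.97 and 2.79 to 2.21 and 2.33 in Nalm6, and from 4.08 and 3.90 to 4.19 and 3.93 in SUPB15. It divides all regions of a library alike, so it cancels on centring. In the uncentred difference only its change within a line counts. The part of sequencing depth in the result was not tested.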

How the results depend on the processing

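The number of genes with a peak in both libraries of a group was 6 in each group under the full lists, a summit rule, a -log10 q of at least 10 and equal list lengths, and with single libraries left out; within 1 kb it was 5 in both SUPB15 groups, as the PPP1R15A peak is farther away. In Nalm6, where 5 regions were called higher and 0 lower, fold enrichment gave 1 and 5, no trend 2, and left-out libraries 2 to 5 higher and 0 lower. In SUPB15, where 3 were higher and 1 lower, no centring gave 5 and 0, fold enrichment 0 and 3, 10 kb background 5 and 0 (0 and 0 without centring), no trend and a -log10 q of at least 10 each 2 and 1 (EIF4EBP1 was lost in both), no chromosomes 1 and 8 1 higher (2 regions fall away), and left-out libraries 1 to 3 higher and 1 lower. For the lines' difference, 1 region as reported, the count was 0 without centring on either measure, 2 with the 10 kb background and 1 to 2 without single libraries. Centring on the median deviation called 6 higher in Nalm6 and 4 in SUPB15, DDIT4 being added in both. Over all regions it called 6141 of 25213 higher in Nalm6 and 1540 of 4765 in SUPB15. Without a trend, 5605 of 25213 were called higher in Nalm6, and in SUPB15, 1117 of 4765 higher and 1833 lower. At a -log10 q of at least 10, 394 of 1642 SUPB15 regions were called higher and 544 lower. Without chromosomes 1 and 8, 866 of 3847 were called higher. The member counts without single libraries have no such share beside them and are not read as a result.

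Signs turned at single regions. On fold enrichment the log2 change was -0.088 at SESN2, -0.69 at DDIT4, -0.55 at the PPP1R15A start site, -0.94 at TRIB3 and -0.54 at EIF4EBP1 in Nalm6, and -0.24 at SESN2, -0.60 at DDIT4, -0.60 at TRIB3 and -0.39 at EIF4EBP1 in SUPB15; its denominator contains the rise of the site itself. CHAC1 in Nalm6 became 0.37 without centring, 0.028 with -log10 q of at least 10, 0.77 and 1.02 on 10 kb background with and without centring, and -0.18 to 0.044 without single libraries. CHAC1 in SUPB15 became 0.19, 0.47 and 0.77 without centring and on the same 10 kb measures. With -log10 q of at least 10, DDIT4 and TRIB3 in SUPB15 were at -0.031 and -0.12, without single libraries at -0.052 to 0.32 and -0.10 to 0.19, and TRIB3 at -0.024 without chromosomes 1 and 8; the cause was not tested. For the difference between lines, DDIT4 was -0.064 and -0.11 and EIF4EBP1 -0.023 and -0.069 on 10 kb background with and without centring, TRIB3 0.19 without centring and 0.12 with median-deviation centring, and without single libraries DDIT4 ranged from -0.15 to 0.28 and TRIB3 from -0.30 to 0.064.

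With the replicate number as a block, every call on the centred summit pileups kept its side (5 higher in Nalm6, 3 higher and 1 lower in SUPB15, and 1 difference between lines). The block was fitted on that measure only. The deviations of same-numbered libraries correlated at 0.03 over 25213 regions in Nalm6 and 0.09 over 4765 in SUPB15, and the numbers are taken as names only. A left-out library leaves 1 in its group, assumed to vary like the others. The pileup limit and the calling threshold bound what these lists can show.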

Other observations

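The leading peaks of these genes were broader than the median peak of their lists. The median width of the 6 leading peaks in a list was 1398.5 to 1675.5 bases in Nalm6 and 695 to 1215 bases in SUPB15, while the median over all peaks of a list was 453 to 493 bases in Nalm6 and 273 to 302 in SUPB15. DDIT4 peaks reached 1897 and 2062 bases in treated Nalm6 and 807 and 671 bases in untreated SUPB15. The PPP1R15A start-site peaks were narrower than the list medians in Nalm6, at 461 and 473 bases untreated and 254 and 374 treated. Widths were not compared with those of other peaks of like pileup.

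SUPB15 asparaginase replicate 1, the longest list with 88302 peaks, held 3 peaks at these genes that were listed as separate peaks in no other SUPB15 library. They were the PPP1R15A start-site peak, a CHAC1 peak with its summit at 1166 bases (108 fragments, fold enrichment 2.26) and a TRIB3 peak with its summit at 1375 bases (59 fragments, fold enrichment 2.05). The Nalm6 TRIB3 peaks extended over that position as part of 1 peak.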
